A study of Mus musculus with 58 samples.

Results

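The genes described here are the sorting nexins and the genes of the Vps and Chmp families, which were taken by name as every symbol starting with Snx, Vps or Chmp and a number. Of the 31246 genes listed, 69 carried such a name, 30 Snx, 31 Vps and 8 Chmp genes, and all 69 had a mean above 0 in both brain regions. The names cover more than sorting nexins, retromer and ESCRT, since the list also holds 8 genes of the HOPS and CORVET tethers and their relatives, 3 of the GARP and EARP tethers, the 4 VPS13 lipid transfer proteins, *Vps45* and *Vps72*. *Vps72*, which shares the name only, codes for a chromatin protein.

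RNA-sequencing was performed on poly(A)+ RNA from the entorhinal cortex (EC) and from the primary visual cortex (PVC) of male *APOE* targeted replacement mice on a C57Bl/6 background, aged between 14 and 15 months, in which human *APOE* stands under the mouse promoter in place of the mouse gene. Each region had 10 *APOE3/3* and 19 *APOE3/4* mice, and both regions carry the same 29 animal numbers, which gives 58 libraries. The methods state that the mice came from more than 1 colony. The values used here are the authors' mean normalized counts, 1 per gene and region, taken over all 29 mice of a region with both genotypes together. They carry no value of a single mouse and none of a genotype, and the authors' comparison of the genotypes was not used here, so that no spread, no test and no effect of *APOE4* is given, and every difference below is a description of 2 means.

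Endosomes sort the membrane proteins that reach them. Retromer, a coat of VPS26, VPS29 and VPS35, and the sorting nexins, which bind phosphoinositides through a PX domain, return cargo such as the sortilin family receptors to the Golgi or to the cell surface. The ESCRT complexes act in sequence on ubiquitinated cargo and pinch it into vesicles inside the endosome, where CHMP proteins form the filaments that the VPS4 ATPases take apart. HOPS and CORVET tether endosomes and lysosomes before they fuse. In the brain this sorting handles the amyloid precursor protein, and inherited changes of several of these genes cause neurodegenerative disease, *VPS35* in Parkinson's disease and *CHMP2B* in frontotemporal dementia among them.

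Most of the 69 genes were well expressed in both regions. In the EC 56 of them had a mean normalized count of at least 1000 and 4 had one under 100, and in the PVC, whose table sums to fewer counts, 44 reached 1000 and 4 lay under 100. To compare genes with each other, the counts were expressed per 1000000 counts of the table and per kilobase of exon of the gene, and this quotient is called the level below. An exon length was found for 68 of the 69 genes, the exception being *Snx29*. The median level of the 68 genes was 13.1 in the EC against 13.4 in the PVC. Over all 15174 genes that had a length and reached 10 counts in both regions, the medians were 6.22 and 6.19. Of the 68 genes, 54 lay above the median of all these genes in the EC and 29 were in their top 25%. In the PVC 56 lay above the median and 26 in the top 25%.

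**Figure D1:**
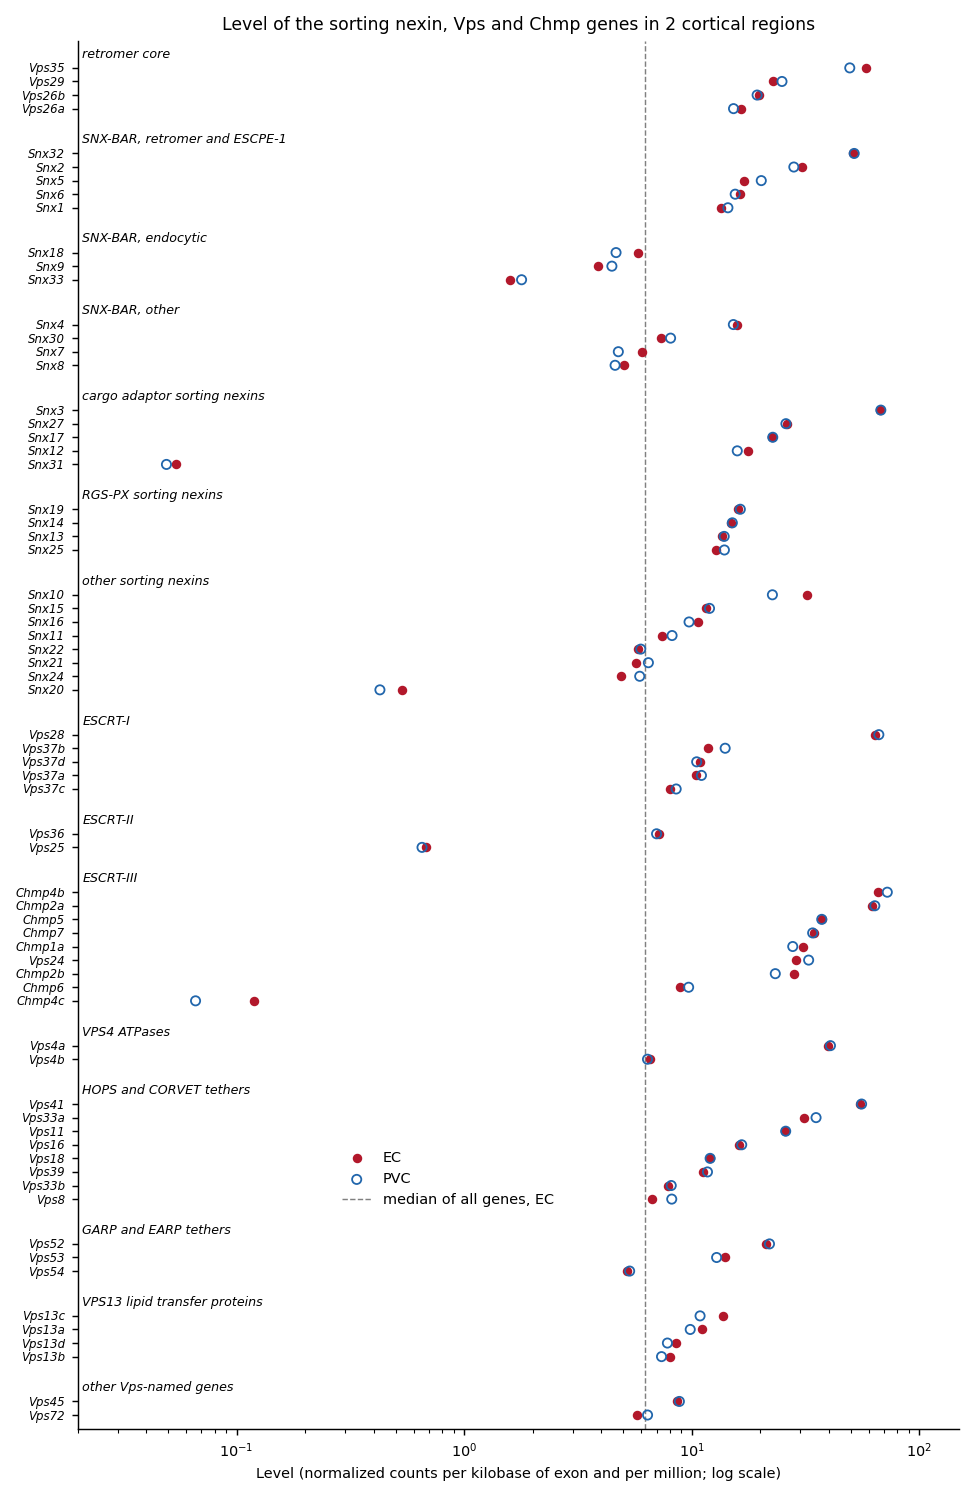
Level of 68 genes by role, in normalized counts per kilobase of exon and per 1000000 counts on a log axis, with 1 filled point for the EC and 1 open point for the PVC per gene, each the authors' mean over 29 mice, so that no error bars can be drawn. With all exons merged, as drawn, levels run from 0.0543 for *Snx31* to 67.0 for *Snx3* in the EC. In the PVC the highest is *Chmp4b* at 72.3. The dashed line marks the EC median of all genes, 6.22.

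The 4 genes of the retromer core were all expressed, with *Vps35* far ahead of the others. *Vps35*, the scaffold of the complex on chromosome 8 (NCBIM37, 87784296 to 87823412), had a mean normalized count of 9112 (EC) and 4256 (PVC), or a level of 58.0 and 49.5. *Vps29*, which binds the far end of VPS35 and lies on chromosome 5 from 122804378 to 122814993, had a mean normalized count of 3462 and 2082 and a level of 22.7 in the EC against 24.9 in the PVC. The arrestin-like subunit that recognises cargo together with SNX3 comes in 2 forms. *Vps26b* had mean normalized counts of 6717 and 3602 and levels of 19.8 and 19.4, EC before PVC. *Vps26a* had 2647 and 1343 counts and levels of 16.5 and 15.3. *Vps26b* thus gave 54.6% of the summed *Vps26* level in the EC against 55.9% in the PVC, so the levels of both forms were of similar size in each region. Before the division by length its share in the EC was 71.7%, since its exons cover 6872 bases and those of *Vps26a* 3252. Of the exon bases of *Vps29* 11% and of those of *Vps26b* 8.47% also lie in an exon of a gene on the other strand, and reads there cannot be told apart without strand.

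Among the cargo adaptors, *Snx3* had the highest level of all 68 genes in the EC with all exons merged. In the PVC *Chmp4b* of ESCRT-III was higher, at 72.3 against 67.7. The order in the EC depends on the gene model. The merged exons of *Chmp4b* cover 2027 bases and its longest transcript 1616, against 1413 and 1401 for *Snx3*. With the length of the longest transcript *Chmp4b* lay above *Snx3* in the EC. SNX3 consists of little more than a PX domain and recruits retromer to endosomes, and its gene (chromosome 10, 42221836 to 42255187) had a mean normalized count of 4673 (EC) and 2590 (PVC), or a level of 67.0 and 67.7. Its close relative *Snx12* had a level of 17.6 in the EC against 15.8 in the PVC, so that *Snx3* gave 79.2% and 81.0% of the sum of the pair. *Snx27*, which carries cargo with a PDZ-binding tail to the plasma membrane together with retromer, had a level of 26.2 and 25.9. *Snx17*, which recycles members of the LDL receptor family, followed with 22.5 and 22.7. *Snx31*, the relative of *Snx17*, stood at the bottom of the list with a mean normalized count of 7.87 (EC) and 3.90 (PVC).

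The SNX-BAR proteins bend membrane into tubules, and those that work with retromer or in the ESCPE-1 coat pair SNX1 or SNX2 with SNX5 or SNX6. All 5 genes of this group were expressed, from 13.4 for *Snx1* to 50.9 for *Snx32* in the EC, and from 14.4 to 51.7 for the same genes in the PVC. *Snx1* had mean normalized counts of 2877 in the EC against 1692 in the PVC and a log2 ratio of the EC over the PVC, centred as described below, of −0.13. *Snx32* had 4148 and 2310 counts and a ratio of −0.05. *Snx32*, a homologue of *Snx5* and *Snx6* known to be expressed in brain, gave 60.5% of the summed level of these 3 genes in the EC against 59.2% in the PVC. *Snx5* gave 20.1% and *Snx6* 19.4% in the EC. These shares depend on the gene model. With the length of the longest transcript *Snx32* gave 53.3%, *Snx5* 29.5% and *Snx6* 17.1%, and without division by length 45.1%, 38% and 16.9%, so that *Snx32* stayed the highest of the 3. The split between *Snx1* and *Snx2* depends on the gene model too. *Snx2* had 69.4% of their sum in the EC with all exons merged and 52.0% with the length of the longest transcript, since the merged exons of *Snx1* cover 4339 bases and its longest transcript 2073.

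The endocytic group, *Snx9*, *Snx18* and *Snx33*, which bind dynamin and act at the plasma membrane, was the group of sorting nexins with the lowest median level, 3.88 (EC) and 4.46 (PVC). *Snx18* was the highest of the 3 in both regions, at 5.80 in the EC against 4.65 in the PVC, and *Snx33* the lowest at 1.59 and 1.79, from 359 and 221 counts and with a log2 ratio of −0.19. *Snx18* gave 51.5% of the summed level in the EC against 42.7% in the PVC, a difference of 8.78 percentage points, which was the widest among the 13 families and pairs compared. The remaining SNX-BAR genes had levels in the EC between 5.05 for *Snx8* and 15.7 for *Snx4*, a gene linked to recycling of the transferrin receptor. *Snx8* had 666 and 333 counts and a log2 ratio of 0.11, and *Snx4* 1898 and 1006 counts and a ratio of 0.02.

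The 4 genes with an RGS domain beside the PX domain, *Snx13*, *Snx14*, *Snx19* and *Snx25*, lay close together, between 12.8 and 16 in the EC and between 13.9 and 16.3 in the PVC. With all exons merged *Snx19* was the highest in both regions, with 4540 and 2548 counts and a log2 ratio of −0.06. *Snx25*, then the lowest in the EC, had 2726 and 1620 counts and a ratio of −0.14. This order depends on the gene model. With the length of the longest transcript *Snx14* gave the largest share of their sum in the EC, 28.1%, and *Snx19* the smallest, 23.8%. Without division by length *Snx13* gave 32.8% and *Snx19* 30.0%. *Snx14*, whose loss causes a cerebellar ataxia in humans, shares 11.1% of the 149-base windows of its transcripts, the length of a read, with the annotated gene *Gm20537*, so its value is less certain. Among the other sorting nexins *Snx10*, which is known for its part in osteoclasts and in the traffic of the vacuolar proton pump, had the highest level, 32.2 (EC) and 22.6 (PVC). The lowest was *Snx20*, which is known from leukocytes, where it binds a selectin ligand, with 38 counts in the EC against 17 in the PVC.

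**Figure D2:**
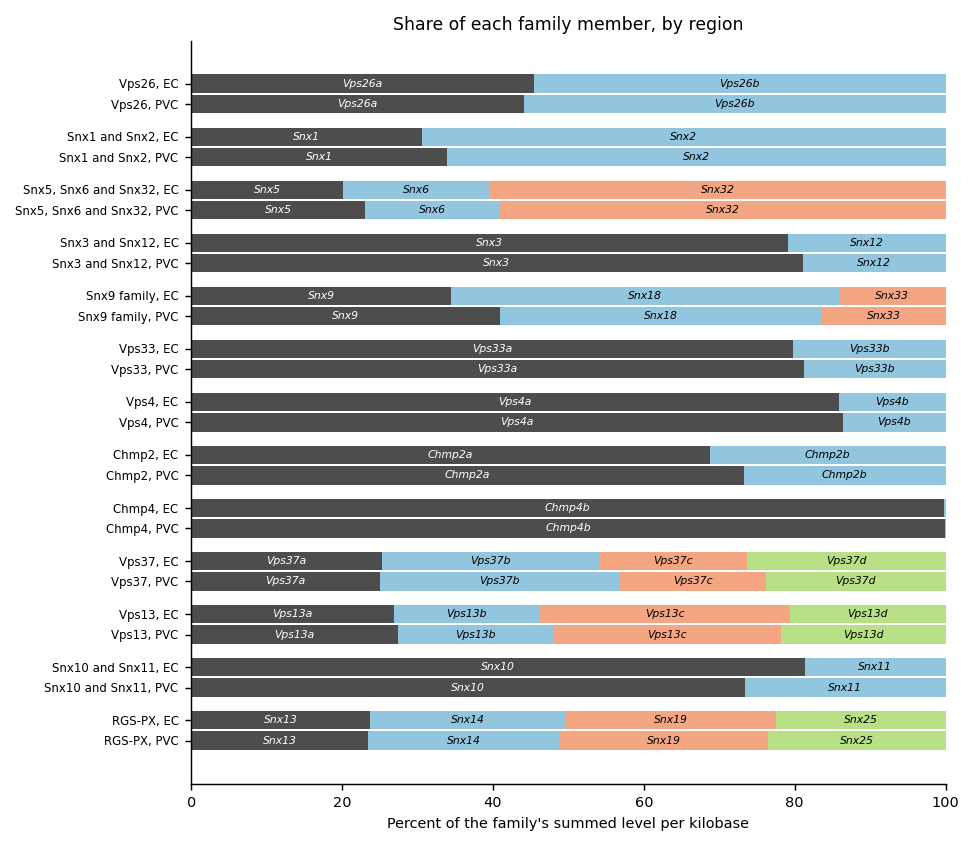
Share of each gene in the summed level per kilobase of its family, in percent on an axis from 0 to 100, with 1 bar for the EC and 1 for the PVC in each of 13 families or pairs. *Chmp4b* gave 99.8% of the *Chmp4* level in the EC and *Vps4a* 85.9% of the *Vps4* level. With all exons merged, as drawn, *Vps26a* and *Vps26b* lay closest to an even split among the pairs. With the longest transcript *Snx1* and *Snx2* were closer in the EC, at 48.0% and 52.0% against 46.6% and 53.4%. Without lengths *Snx1* and *Snx2* had 48.8% and 51.2%, against 28.3% and 71.7% for *Vps26a* and *Vps26b*.

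The ESCRT-III genes had the highest median level of the groups with more than 2 members, 30.7 in the EC against 32.6 in the PVC, and 2 of them were among the 4 highest of all 68 genes. Before the division by length their median count in the EC, 2796, lay under that of several other groups, up to 6633 for the VPS13 genes. *Chmp4b*, which codes for the main filament subunit (chromosome 2, 154477441 to 154520521), had a mean normalized count of 6584 (EC) and 3966 (PVC), or a level of 65.8 and 72.3. *Chmp2a*, whose product caps the filament and binds VPS4, had 2844 and 1599 counts and a level of 62.1 and 63.7. *Chmp2b*, the relative with mutations in frontotemporal dementia, had 2564 and 1158 counts and a level of 28.2 and 23.3, and gave 31.3% of the sum of both *Chmp2* genes in the EC against 26.8% in the PVC.

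*Chmp5* had 2796 counts in the EC against 1531 in the PVC, or a level of 37.3 and 37.2. *Chmp7*, which is known for its part in sealing the nuclear envelope, had 2316 and 1247 counts and a level of 34.6 and 34. *Chmp1a* had 4943 and 2450 counts and a level of 30.7 and 27.8. *Vps24*, which is the older name of *Chmp3* and was matched to the gene models through it, had 4617 and 2869 counts and a level of 28.8 and 32.6. These 4 genes lay in the top 25% of all genes in both regions. *Chmp6*, the link between ESCRT-II and the filament, was lower, with 1062 and 637 counts and a level of 8.84 and 9.69. *Chmp4c*, which is known from the abscission checkpoint of dividing cells, had 10.9 and 3.31 counts, so that *Chmp4b* supplied 99.8% of the *Chmp4* level in the EC against 99.9% in the PVC.

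Upstream of the filament, *Vps28* of ESCRT-I had the third highest level of the 68 genes in both regions, 63.7 in the EC against 66.4 in the PVC, from 3093 and 1766 counts and with a log2 ratio of −0.08. The 4 *Vps37* genes, which code for alternative ESCRT-I subunits, were far lower and close to each other, from 8.05 for *Vps37c* to 11.8 for *Vps37b* in the EC and from 8.54 to 14.0 for the same genes in the PVC. *Vps37c* had 961 and 558 counts and a log2 ratio of −0.11. In ESCRT-II *Vps36*, which binds ubiquitin, had 1313 and 702 counts, a level of 7.18 and 7.0 and a ratio of 0.01. *Vps25*, its partner in that complex, had 55.2 counts in the EC against 29 in the PVC, with a ratio of 0.04. That low value belongs to a gene (chromosome 11, 101115021 to 101120863) of whose exon bases 67.2% also lie in an exon of *Ramp2* on the same strand, and of whose 149-base windows 49.6% occur in *Ramp2* transcripts too. Reads there cannot be given to 1 gene, so the level of *Vps25* is uncertain, and the part of this overlap in its low value was not tested. Of the ATPases that take the filament apart, *Vps4a* had a level of 39.7 in the EC and *Vps4b* one of 6.53, with 40.7 and 6.39 in the PVC. *Vps4a* had 4945 and 2776 counts and a log2 ratio of −0.06, and *Vps4b* 2702 and 1449 counts and a ratio of 0.01. *Vps4a* gave 85.9% and 86.4% of their sum, and 64.7% in the EC before the division by length.

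Of the genes of the tethers, *Vps41*, which codes for a subunit of HOPS that binds lysosomal membrane, was the highest, at 55.0 (EC) and 55.8 (PVC), from 8684 and 4820 counts. *Vps33a*, whose product binds SNARE proteins, had 31.1 and 35.2. *Vps11*, *Vps16* and *Vps18*, which code for subunits of the core shared by both tethers, had 25.8, 16.1 and 12.1 in the EC. *Vps8*, which codes for a subunit of CORVET, was the lowest of the 8 in the EC at 6.66, with 8.16 in the PVC. *Vps33b*, which acts with VIPAR in a complex of its own, was next at 7.88, with 8.12 in the PVC. The order of these 2 depends on the gene model. The merged exons of *Vps8* cover 8672 bases and its longest transcript 5032, against 3343 and 2574 for *Vps33b*. With the length of the longest transcript *Vps33b* was the lower of the 2 in the EC. In GARP and EARP, which receive endosomal vesicles, *Vps52* had the highest level, 21.2 in the EC against 22 in the PVC, from 4058 and 2302 counts, and *Vps54*, whose mutation causes the motor neuron loss of the wobbler mouse, the lowest, 5.2 and 5.33, from 2030 and 1141 counts. The VPS13 genes code for very long proteins that pass lipids between membranes. They had high mean normalized counts, up to 10448 for *Vps13d* in the EC, but per kilobase their levels lay between 8.01 and 13.7 in the EC.

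*Vps45*, the partner of endosomal syntaxins, had a level of 8.61 (EC) and 8.82 (PVC), and *Vps72*, with 1029 and 629 counts, one of 5.73 and 6.39. The order of the 68 genes was nearly the same in both regions (Spearman rho 0.991 across genes, which share libraries and gene models). It was 0.984 over all 15174 genes, so this stability is not particular to these genes. Which neighbours in the order differ beyond the spread between mice cannot be said from means.

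The sequence before 3 of these genes held the palindrome TCACGTGA, which is the core of the element that the lysosomal regulator TFEB is known to bind. Promoter windows of 300 bases, 250 before and 50 after the start site, were found in RefSeq for 47 of the 69 genes on build GRCm38.p6. The 8 letters, which read the same on both strands, were in a window of *Vps16*, *Vps26a* and *Vps33a*, or 6.38% of the 47 genes, in windows of 1.12% of all 27025 genes that had one, and in 2.03% of the 10515 of these with at least 10 counts in both regions. The 6 inner letters CACGTG, which every copy of the longer palindrome contains, were found for 6 of the 47 genes (12.8%), for 8.09% of the 27025 and for 11.4% of the 10515. *Vps16* and *Vps33a* code for proteins that bind each other within the tethers, and their levels in the EC were 16.1 and 31.1. The 3 windows are shown because they hold the palindrome, which is in capitals, and the strand is given after the coordinates. A second window of *Vps26a* also held it and is not shown, and the window of *Vps33a* holds it 2 times.
Vps16 (chr2:130424070-130424369, +): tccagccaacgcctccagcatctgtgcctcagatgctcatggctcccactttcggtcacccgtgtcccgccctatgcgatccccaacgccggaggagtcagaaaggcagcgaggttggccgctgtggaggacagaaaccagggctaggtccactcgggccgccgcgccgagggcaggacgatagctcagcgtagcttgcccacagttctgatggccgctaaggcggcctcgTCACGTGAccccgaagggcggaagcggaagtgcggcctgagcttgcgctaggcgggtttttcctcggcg
Vps26a (chr10:62486549-62486848, −): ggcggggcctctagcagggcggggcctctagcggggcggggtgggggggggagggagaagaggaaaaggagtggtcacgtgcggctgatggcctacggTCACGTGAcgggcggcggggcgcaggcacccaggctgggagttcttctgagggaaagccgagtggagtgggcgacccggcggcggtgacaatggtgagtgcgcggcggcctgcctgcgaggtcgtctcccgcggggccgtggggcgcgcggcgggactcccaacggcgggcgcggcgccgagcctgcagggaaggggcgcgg
Vps33a (chr5:123572966-123573265, −): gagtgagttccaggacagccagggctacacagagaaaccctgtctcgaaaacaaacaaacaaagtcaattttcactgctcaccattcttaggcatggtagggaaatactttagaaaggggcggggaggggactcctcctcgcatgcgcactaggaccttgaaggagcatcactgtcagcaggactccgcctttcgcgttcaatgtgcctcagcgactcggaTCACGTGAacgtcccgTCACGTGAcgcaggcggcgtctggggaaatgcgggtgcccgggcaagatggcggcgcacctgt
In the windows shown the first copy begins 19 bases before the start site in *Vps16*, 152 before it in *Vps26a* and 29 before it in *Vps33a*. For *Vps26a* this distance holds only for the start site of the window shown. A match of letters is a description and shows no binding.

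The regions were then compared gene by gene. The authors normalized each region on its own, and the EC table sums to 1.83 times the PVC table, so the ratio of the EC mean to the PVC mean was centred on its median over the 15642 genes that reached a mean of 10 counts in both regions. Of the 69 genes 67 reached this minimum, and *Chmp4c* and *Snx31* did not. These genes differed little between the regions. In bulk tissue fewer cells of a type and less RNA per cell cannot be told apart. A difference was counted where the mean of one region was at least 25% above that of the other, or 0.32 on the log2 scale. By this limit 2 of the 67 were higher in the EC, where 14.4% of all genes were, and 0 were higher in the PVC, where 11.1% of all genes were. In either direction the shares were 2.99% of the 67 and 25.5% of all genes. The median log2 ratio of the 67 genes was −0.05, and the interquartile range of their ratios was 0.21 on the log2 scale, against 0.31 for all genes. Of the 67 genes 34 lay within 0.1 of the median of all genes, as did 5634 of all 15642. The share of all genes past the limit depends on the counts. Among the 12097 genes with at least 100 counts in both regions it was 10.4% for the EC and 9.56% for the PVC, against 3 and 0 of the 65 Snx, Vps and Chmp genes left. At a minimum of 1000 counts it was 7.23% and 8.55%, against 2 and 0 of 44, and with no minimum 23.7% and 17.8%, against 2 and 2 of 69. At a limit of 1.1-fold 9 and 16 of the 67 genes were past it, beside 27.8% and 25.5% of all genes, and at 1.5-fold none was, beside 6.78% and 5.38%.

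**Figure D3:**
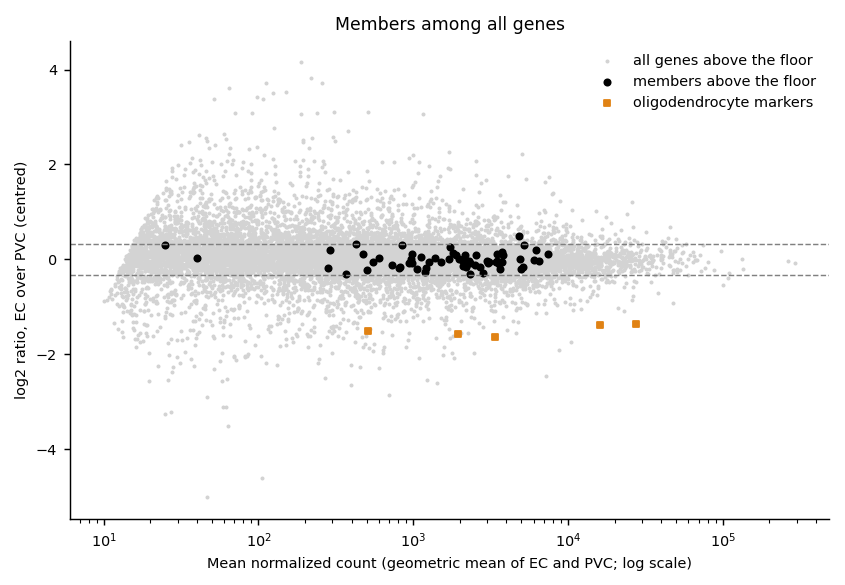
Log2 ratio of the EC over the PVC mean, centred on the median of all genes, against the geometric mean of the mean normalized counts on a log axis, with 1 point per gene. Black points, the 67 genes, sit between −0.32 and 0.48, and the squares, 5 oligodendrocyte markers, between −1.63 and −1.37, with dashed lines at the limit.

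The 2 genes past the limit were *Snx10* and *Snx7*. *Snx10* (chromosome 6, 51473900 to 51540678) had a mean normalized count of 7803 in the EC against 3004 in the PVC, a log2 ratio of 0.48 or 1.40-fold higher in the EC. *Snx7*, an SNX-BAR gene that pairs with *Snx4*, had 649 and 279, a log2 ratio of 0.32. *Snx7* lay just past the limit, which is 0.32 on the log2 scale. *Vps8* fell just short of it on the side of the PVC, at −0.32, so these 2 genes differed by almost the same amount in opposite directions. At this fold *Snx10* was past the limit under every minimum count, scaling and centring tried, with log2 ratios from 0.46 to 0.52. *Snx7* was not past it with no minimum, at 0.30, and did not reach the minimum of 1000 counts. *Vps8* was past it with no minimum, at −0.35, and with centring within 4 groups of genes by exon length, at −0.33. With *Snx11*, its nearest relative, which had a log2 ratio of −0.18, *Snx10* gave 81.3% of the summed level of the pair in the EC against 73.4% in the PVC.

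The next genes in size of difference were of several roles. Higher in the EC were *Vps13c*, at a log2 ratio of 0.31, *Snx18* at 0.30, *Snx20* at 0.29, with few counts, and *Chmp2b* at 0.25. Higher in the PVC were *Snx24* at −0.30, *Snx5* at −0.28 and *Vps37b* at −0.27. None of these 7 reached the limit in this setting. *Vps13c* was past it at a minimum of 100 counts, at one of 1000 counts and with the tables scaled by their sums, at 0.32, 0.34 and 0.33, and *Snx24* with no minimum, at −0.33. *Snx5* had 3493 counts in the EC against 2283 in the PVC, *Vps37b* 1469 and 953, *Vps13c* 7856 and 3418, and *Snx24* 454 and 300.4.

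By role, the retromer core had log2 ratios of 0.21 for *Vps35*, 0.09 for *Vps26a*, 0.01 for *Vps26b* and −0.16 for *Vps29*, so its subunits differed in sign. In ESCRT-III the 8 genes with enough counts ran from −0.21 for *Vps24* to 0.25 for *Chmp2b*, with 3 above 0 and 5 below. *Chmp1a* had 0.12, *Chmp7* 0.00, *Chmp5* −0.02, *Chmp2a* −0.06 and *Chmp4b* and *Chmp6* −0.16 each. The 4 VPS13 genes were all above 0, from 0.10 for *Vps13b* to 0.31 for *Vps13c*, with a median of 0.13. They stayed above 0 under each of the other scalings and minimum counts tried. The 8 genes of HOPS, CORVET and their relatives were all below 0, with a median of −0.07. Their values ran from −0.32 for *Vps8* to −0.02 for *Vps18*. With the tables scaled by their sums 7 of the 8 were below 0, and with a minimum of 1000 counts 5 of 7. Of the 3 GARP and EARP tether genes 1 was above 0, *Vps53* at 0.10, and 2 were below. Over all 67 genes 26 were above 0 and 41 below. The 4 RGS genes lay between −0.14 and −0.05. Without the spread between mice it cannot be said which of them differ from 0.

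**Figure D4:**
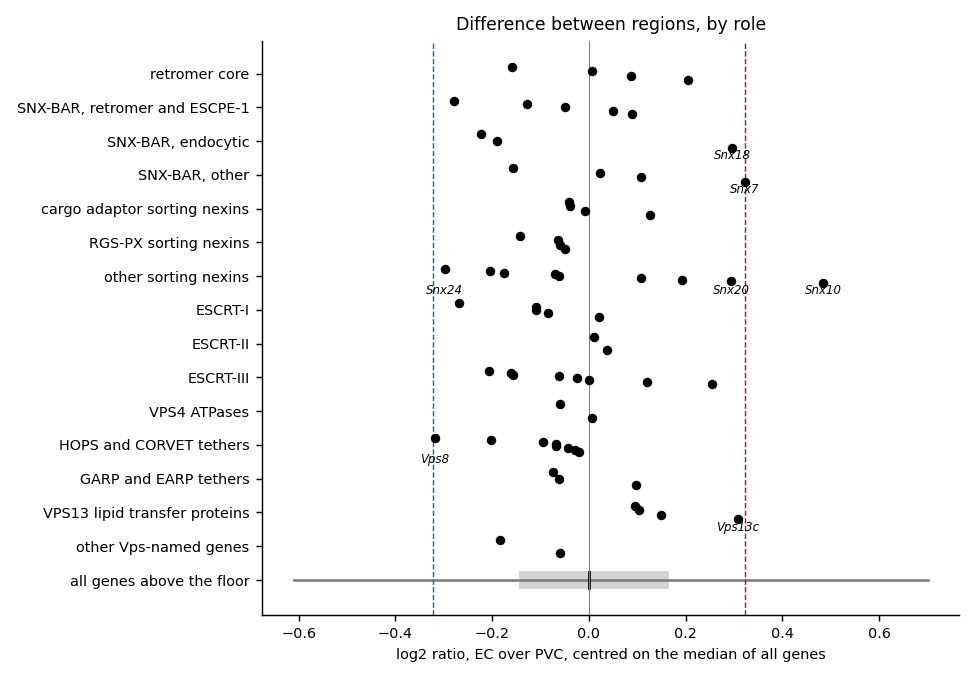
Log2 ratio of the EC over the PVC mean for 67 genes by role, centred on the median of all genes, with 1 point per gene and dashed lines at the limit. The bottom row gives all 15642 genes, with a box for their interquartile range and a line from the 5th to the 95th percentile, and 2 of the 67 points, *Snx10* and *Snx7*, lie past a dashed line.

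Of 25 listed genes that carry other names, among them subunits and partners of ESCRT, retromer cargo receptors and the lipid kinase VPS34, 1 was past the limit on the side of the EC and 1 on that of the PVC, with a median log2 ratio of −0.01. The first was *Ehd1*, which codes for an ATPase of recycling endosomes, at 0.42, and the second *Sorcs1*, a sortilin family receptor, at −0.75. *Tsg101*, the ESCRT-I subunit that binds VPS28, had a log2 ratio of 0.00, and its level of 18.6 in the EC lay under the 63.7 of *Vps28*. *Snf8*, the third subunit of ESCRT-II, had a level of 16 in the EC. Among the retromer cargo receptors *Sort1* had the highest level in the EC, 93.7, and *Sorl1*, a risk gene of Alzheimer's disease, had 34.9 with a log2 ratio of −0.32.

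Markers of some cell types also differed between the regions. All 5 oligodendrocyte markers were lower in the EC, with log2 ratios from −1.63 to −1.37, and their summed mean normalized count was 41484 (EC) and 58935 (PVC). The 5 neuronal markers that were listed ran from −0.55 to 0.14, the 4 of microglia from 0.01 to 0.15, and the 3 of endothelium from −0.01 to 0.04. Of the 4 astrocyte markers 3 were above 0, up to 0.62 for *Gfap*, and 2 of these were past the limit. *Aldh1l1* was past it on the side of the PVC, at −0.35. All 3 meningeal markers were higher in the EC, up to 3.07 for *Dcn*. Of the markers listed for dentate gyrus and hippocampus 4 had at least 10 counts in both regions. *C1ql2*, *Wfs1* and *Nts* were higher in the EC, at 1.79, 1.03 and 2.64, and *Prox1* was lower, at −0.25. Of the choroid plexus markers *Ttr* had −2.18, *Kcnj13* 1.45 and *Kl* 0.02, each from few counts. Neuronal markers were abundant in both regions, with a median level of 221 in the EC against 256 in the PVC. The part of cell makeup in the ratios above was not tested.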

How the data were processed

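Samples were grouped by region and genotype from their labels. Per the paper's methods and the submitters' processing notes, the authors aligned single-end reads of 149 bases to mm9 with TopHat 2.0.6 and Bowtie 2.0.2.0, counted them per gene with HT-SEQ on the NCBIM37 annotation and ran DESeq2 1.10.1 in each region. The authors deposited 1 table per region. Its mean normalized count, counts divided by size factors and averaged over 29 libraries, was used as deposited and treated as a signal. The other 5 columns hold the authors' comparison of *APOE3/4* with *APOE3/3* (log2 fold change, standard error, statistic and *p*-values) and were not used. Depth per library was not analysed here, and no interval or test can be given.

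Exon lengths came from the GENCODE annotation of NCBIM37, the build of mm9, and were matched by symbol for 81.1% and by synonym for 1.27% of the genes listed. Ratios needed a mean normalized count of at least 10 in both regions, were centred on their median over those genes, and were counted where one region exceeded the other by at least 25%. Names in the text follow a rule set with the lists: all retromer core and ESCRT-III genes, the highest and lowest gene of the other roles, and the 10 largest ratios. Additional members were named for their role or family share after their values were seen. The members, lists and rule were chosen with earlier results of these data known, and the palindrome after values were seen. Computation was done in Python 3.11.15 with pandas 2.3.3 and numpy 2.4.6, correlations with scipy 1.17.1, figures with matplotlib 3.10.9. On simulated data, made from the PVC means with known factors and no noise, the ratio step gave the factors back, which checks its arithmetic only. Other minimum counts, fold limits, centrings and lengths were tried.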

Additional observations from a re-analysis of the deposited data

How the results depend on the processing

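The number of genes past the fold limit, 2 on the side of the EC and 0 on that of the PVC at the 25% limit, was 9 and 16 of 67 at 1.1-fold, where 27.8% and 25.5% of all genes were past it, and 0 and 0 at 1.5-fold, where 6.78% and 5.38% were. The count for the PVC became 2 with no minimum count and 1 with centring within 4 groups of genes by exon length. The number higher in the EC was 2 or 3 with no minimum, with centring by exon length, at the other minimum counts and with scaling by the table sums, but the genes changed. *Snx10* was among them in each of these settings. With no minimum *Snx7* fell short at 0.30 and *Chmp4c*, with 10.9 and 3.31 counts, took its place, and at a minimum of 1000 counts *Snx7* was not tested and *Vps13c* was past the limit at 0.34. *Vps13c* was the third gene at a minimum of 100 counts and with scaling by the sums. The median ratio of the members moved by at most 0.04, from −0.07 with no minimum to −0.01 with a minimum of 1000 counts, which was added after the data were seen. The order of levels without division by length had a Spearman rho of 0.714 with the one given in the EC and 0.688 in the PVC. Of the values of single genes, roles and shares compared, 132 moved by at most 0.1 on the log2 scale or 10 percentage points, which does not say that they stayed on their side of the limit, and 10 moved by more, mostly shares within families when lengths were left out. No paired analysis was possible because the tables hold means over mice, and for the same reason leaving out single mice could not be tried. Depth and the spread between mice are not known from these means, so a ratio near 1 cannot be told apart from noise.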
